A study of Mus musculus with 3 samples.

Results

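The genes described here are 9 enzymes that make serine and pass its carbon to folate: Phgdh, Psat1, Psph, Shmt1, Shmt2, Mthfd1, Mthfd1l, Mthfd2 and Aldh1l2. They were taken by name, with earlier results of these data already known. All 9 were found among the 20716 gene symbols of the CBTi-seq table and, through their Ensembl IDs, among the 55402 IDs of the 3' tables, with 1 ID each.

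The series set cells with a knockdown of Rrm2, the small subunit of ribonucleotide reductase, against control cells of the same line, with both groups read by CBTi-seq and also by a method aimed at 3' ends. All cells were L929, a mouse fibroblast line from connective tissue. Cells were picked singly into lysis buffer with a capillary, their RNA was copied with an oligo dT primer and template switching, and 20 PCR cycles followed. The labels state neither how Rrm2 was knocked down nor how long before picking, nor whether the cells came from 1 clone, and no control reagent is named.

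The 3 samples hold 4 groups of columns: 10 control and 10 knock columns in the CBTi-seq sample, 8 columns in the 3' library labelled control and 8 in the 3' library labelled knock. Columns are called columns here, since their names do not call them cells. There is 1 sample per 3' group and 1 for both CBTi-seq groups, so no test was made and no difference has a replicate check. CBTi-seq columns held 41570 to 846819 counts in control and 153051 to 735871 in knock, and 3' columns held 399393 to 2496457 and 814960 to 1973137. Over summed columns, 3 counts, the upper limit that a count of 0 allows, came to 0.777 and 0.855 CPM, the usual scale in which all gene counts of a group or column are set to the same total, in CBTi-seq and 0.424 and 0.327 CPM in the 3' libraries. In CBTi-seq the targeted gene, Rrm2, was at 481 CPM in control and 350 CPM in knock, a ratio of 0.728. In the 3' libraries it went against the labels: its level was 39.1 CPM under the label control but 148 CPM under the label knock, 3.79-fold higher. Every 3' direction below therefore refers to the labels of the libraries alone. Of 13 fibroblast markers, 9 had counts in CBTi-seq, where Thy1, Lum, Dcn and Postn were at 0. In the 3' libraries 12 had counts and Postn was at 0. At 20 CPM or more there were 7 of the markers in CBTi-seq and 3 in the 3' libraries.

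Serine is made from the glycolytic intermediate phosphoglycerate by a row of enzymes. PHGDH oxidises it, PSAT1 adds the amino group from glutamate, and PSPH removes the phosphate. Serine hydroxymethyltransferases then split serine to glycine and hand the released carbon to tetrahydrofolate, SHMT1 in the cytosol and SHMT2 in mitochondria. Folate-bound carbon is interconverted by MTHFD1 in the cytosol and by MTHFD2 and MTHFD1L in mitochondria, where ALDH1L2 can burn it to carbon dioxide while making NADPH. The carbon is spent on purines and on thymidylate, which ties these enzymes to the supply of DNA precursors that ribonucleotide reductase also feeds.

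The promoters of 4 of the enzymes are shown because these 4 had every CBTi-seq knock column above the control median: Phgdh, Psph, Shmt2 and Mthfd2. Each window runs from 250 bases before to 50 after the RefSeq transcription start on GRCm38.p6, on the minus strand of the genome, and is written in the direction of transcription. Capitals mark the letters CCAAT, the CCAAT box, or ATTGG, the same box on the other strand.
Phgdh, chr3:98339920-98340219: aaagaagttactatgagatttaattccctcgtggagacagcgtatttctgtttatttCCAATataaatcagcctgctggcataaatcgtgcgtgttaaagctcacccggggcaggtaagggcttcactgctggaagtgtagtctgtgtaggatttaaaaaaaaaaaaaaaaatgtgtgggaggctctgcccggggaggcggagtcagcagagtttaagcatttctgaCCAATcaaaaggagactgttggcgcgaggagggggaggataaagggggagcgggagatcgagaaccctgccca
Psph, chr5:129787204-129787503: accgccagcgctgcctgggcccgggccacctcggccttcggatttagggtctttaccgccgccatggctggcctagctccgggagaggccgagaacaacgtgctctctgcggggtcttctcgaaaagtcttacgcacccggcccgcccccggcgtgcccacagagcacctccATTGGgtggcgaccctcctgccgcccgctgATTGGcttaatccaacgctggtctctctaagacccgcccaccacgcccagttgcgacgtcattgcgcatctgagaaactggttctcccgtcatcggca
Shmt2, chr10:127522395-127522694: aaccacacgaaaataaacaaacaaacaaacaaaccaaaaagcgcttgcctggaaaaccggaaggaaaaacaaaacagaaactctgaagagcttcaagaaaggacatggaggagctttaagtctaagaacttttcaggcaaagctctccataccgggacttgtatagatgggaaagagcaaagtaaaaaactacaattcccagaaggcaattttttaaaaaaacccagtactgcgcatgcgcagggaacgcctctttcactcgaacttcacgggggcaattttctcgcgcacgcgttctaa
Mthfd2, chr6:83317555-83317854: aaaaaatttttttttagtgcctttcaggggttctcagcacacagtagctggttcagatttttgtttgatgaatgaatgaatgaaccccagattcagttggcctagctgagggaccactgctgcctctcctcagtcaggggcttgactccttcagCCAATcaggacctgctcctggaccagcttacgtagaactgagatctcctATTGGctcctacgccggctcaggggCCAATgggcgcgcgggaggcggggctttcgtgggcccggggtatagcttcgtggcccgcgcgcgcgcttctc

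Windows were found for 8 of the 9 enzymes, and Psat1 has 2 of them. Counts below are of enzymes with the letters in any window, set beside shares of single windows. The CCAAT and GC boxes of Psat1 lie in different windows. Aldh1l2 had none. CCAAT on either strand was in the windows of 6 of the 8, namely Phgdh, Psat1, Psph, Shmt1, Mthfd1 and Mthfd2, and in 37.4% of all 32851 windows of this length. In Mthfd2 the 3 boxes begin 96, 47 and 22 bases before the start, in Psph the 2 boxes begin 78 and 48 bases before it, and in Phgdh they begin 193 and 23 bases before it. The GC box, GGGCGG on either strand, was in the windows of 5 of the 8 enzymes, beside 35.7% of all windows. The composite C/EBP-ATF element, searched as TGATGNAAT on both strands, was in none of the 8 and in 0.965% of all windows. The E-box CACGTG was in none of the 8 and in 7.15% of all. No CCAAT box found overlapped a GC box. A match describes letters in this window, and the window leaves out introns and more distant sequence.

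**Figure D1:**
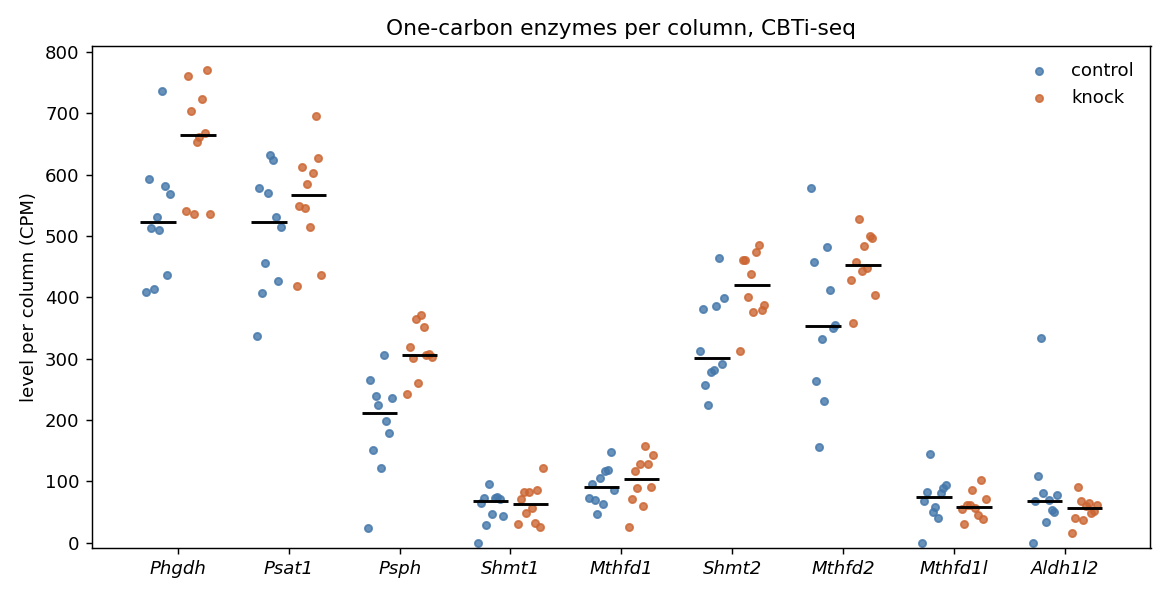
Level of each enzyme in each CBTi-seq column, in CPM on a linear axis, with 10 control columns in blue, 10 knock columns in orange and the median of each group as a black bar. Phgdh, Psph, Shmt2 and Mthfd2 have all 10 knock columns above the control median, while Shmt1, Mthfd1, Mthfd1l and Aldh1l2 lie below 160 CPM in all columns but 1, a control column with Aldh1l2 at 333 CPM.

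In CBTi-seq all 3 serine synthesis enzymes were higher in knock than in control, Psph the most. Psph was at 205 CPM in control, with an exact Poisson 95% interval of 191 to 219.9 CPM, and at 312 CPM in knock, with an interval of 294 to 331 CPM. These intervals and those of the ratios cover counting error only, not the spread between columns, and PCR copies would make them too narrow wherever counts are reads. Psph ran from 24.1 CPM over a median of 211 to 306 CPM in control columns and from 242 over 306 to 372 CPM in knock columns. All 10 knock columns lay above the control median and 8 of 10 control columns lay below the lowest knock column, but the ranges overlapped. The log2 ratio of Psph, knock to control, was 0.61 (exact conditional 95% interval 0.47 to 0.74), a 1.52-fold higher level.

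Phgdh, the first enzyme of the route, had 409, 522 and 737 CPM as its lowest, median and highest control columns and 535, 664 and 771 CPM in knock. Its summed level was 525 CPM in control and 632 CPM in knock, with a log2 ratio of 0.27 (0.18 to 0.36). Every knock column was above the control median, and the single highest control column, at 737 CPM, was above most knock columns. Psat1 had 337, 522 and 631 CPM in control and 419, 566 and 696 CPM in knock. It showed the smallest difference of the 3, with a log2 ratio of 0.12 (0.03 to 0.21) and 7 of 10 knock columns above the control median.

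The mitochondrial pair that splits serine and oxidises its carbon was higher in knock as well. Shmt2 was at 321 CPM in control and 421 CPM in knock. Its lowest, median and highest columns were 224, 302 and 463 CPM in control and 313, 420 and 485 CPM in knock. The log2 ratio of Shmt2 was 0.39 (0.28 to 0.50). It was 0.07 when columns were thinned to 50000 counts, a value that rests on few counts and has no interval. The mean of CPM over columns gave 0.35, and leaving out control column 1 gave 0.39. Thinning left out control column 1, which held only 41570 counts. Mthfd2, the mitochondrial dehydrogenase and cyclohydrolase, was at 342 CPM in control and 452 CPM in knock. Its columns had 156, 353 and 577 CPM in control and 358, 453 and 528 CPM in knock, and the log2 ratio was 0.40 (0.30 to 0.51). For both genes all 10 knock columns were above the control median and 6 of 10 control columns were below the lowest knock column. The coefficient of variation of Shmt2 over columns was 23.1% in control and 13.2% in knock. That of Psph was 41.5% in control, or 26.9% without control column 1, and 13.3% in knock. Mthfd1 went the other way, with 33.1% and 40.7%.

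The other mitochondrial enzymes were lower in knock, Aldh1l2 by more than its counting error. Aldh1l2 was at 87.5 CPM in control and 56.5 CPM in knock, with a log2 ratio of -0.63 (-0.89 to -0.38). Its columns had 0, 68.6 and 333 CPM in control and 15.1, 56.4 and 90.5 CPM in knock, and 9 of 10 knock columns lay below the control median. Control column 4 alone held 92 of the 338 control counts of Aldh1l2, and without it the log2 ratio was -0.28. Mthfd1l, the mitochondrial synthetase that releases formate, was at 77.9 CPM in control and 65.9 CPM in knock. Its log2 ratio was -0.24 (-0.50 to 0.01), so the counting interval reached 0, and 8 of 10 knock columns lay below the control median.

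The intervals of both cytosolic enzymes held 0 in CBTi-seq. Shmt1 was at 67.1 and 74.4 CPM in control and knock, with a log2 ratio of 0.15 (-0.10 to 0.40) and 5 of 10 knock columns above the control median. Without knock column 10, its highest column at 122 CPM, the log2 ratio of Shmt1 was -0.12. Mthfd1, which carries 3 folate activities in 1 protein, was at 102.0 and 112 CPM, with a log2 ratio of 0.14 (-0.07 to 0.34) and 6 of 10 knock columns above the control median.

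**Figure D2:**
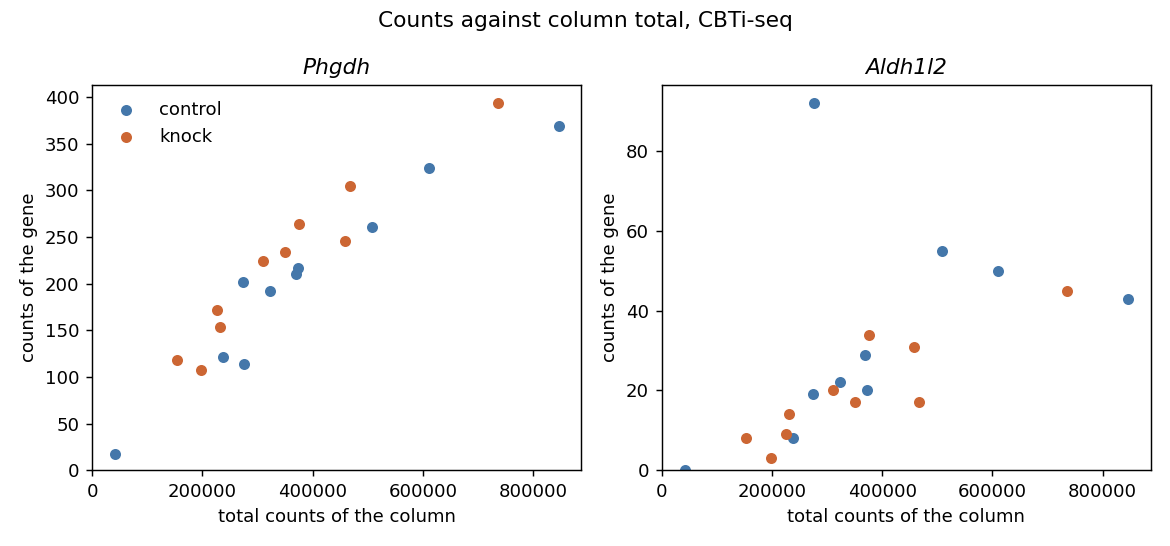
Counts of Phgdh (left) and Aldh1l2 (right) against the total counts of the same CBTi-seq column, 1 point per column, control in blue and knock in orange, both axes linear from 0. Phgdh counts follow the column total, whereas control column 4 stands off from the others with 92 counts of Aldh1l2 at a total of 276231.

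The size rule asked for a 2-fold difference or more in genes that averaged 50 CPM or more over both groups, and 0 of the 9 enzymes met it in either direction in CBTi-seq. Of the 5243 genes at that level, 0.343% were 2-fold higher and 0.668% 2-fold lower in knock. Having all 10 knock columns above the control median was looked at after the values were seen: it held for 4 of the 9 enzymes and for 5.70% of the 5243 genes. All 10 below it held for 0 of the 9 and for 4.06% of those genes. The 4 became 1 of 9 (Psph, with 1.51% of genes) when columns were thinned to 50000 counts, without control column 1. They became 2 of 9 (Psph and Shmt2, with 5.78%) when counts were corrected for collisions of molecular identifiers. The median log2 ratio of the 9 was 0.15, with 7 higher and 2 lower, while that of the 8391 genes at 20 CPM or more was -0.05, with 44.7% of them higher. Summed, the 9 enzymes were at 2233 CPM in control and 2675 CPM in knock, which gave a log2 ratio of 0.26 (0.22 to 0.30), and 9 of 10 knock columns were above the control median of the sum. Beside this, the summed fibroblast markers ran from 1627 to 2885 CPM in control columns and from 1595 to 2705 CPM in knock columns. Of 7 immune markers, 5 had counts, 1 of them at 20 CPM or more, and Ptprc and Cd3e were at 0. Summed, the immune markers ran from 21.0 to 181 and from 10.6 to 52.3 CPM. The part of all these markers in the differences was not tested.

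**Figure D3:**
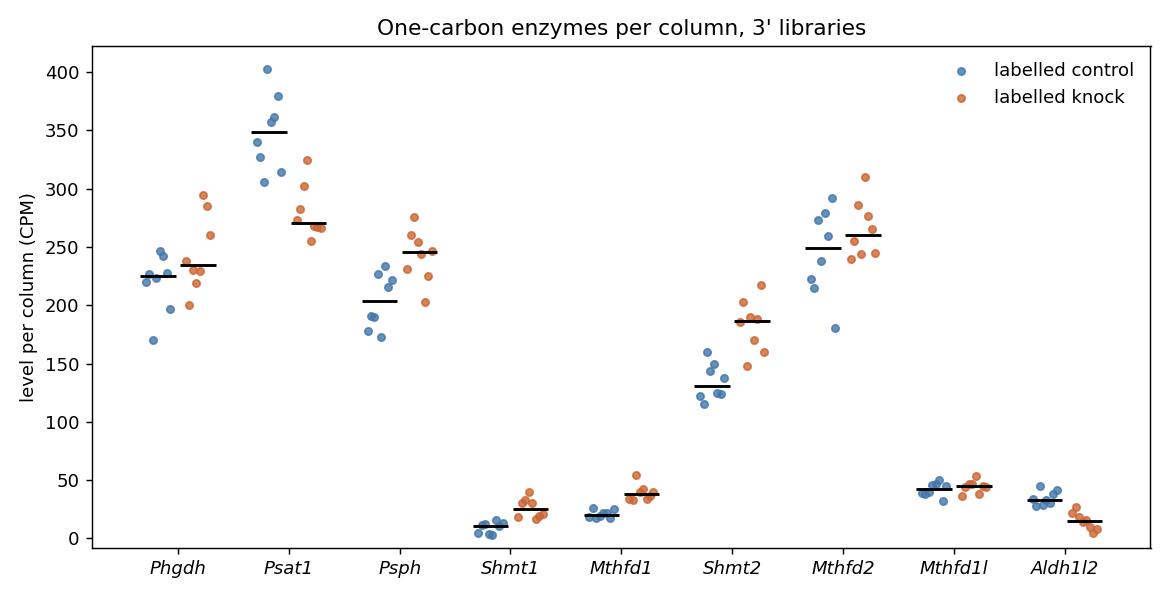
Level of each enzyme in each 3' column, in CPM on a linear axis, with 8 columns of the library labelled control in blue, 8 of the library labelled knock in orange and the median of each as a black bar. The columns of Shmt1, Mthfd1 and Aldh1l2 do not overlap between the libraries, and all 8 columns labelled knock lie below the control median for Psat1. Of genes at 20 CPM or more, 21.2% were higher and 8.02% lower labelled knock without overlap.

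In the 3' libraries the largest ratios were those of Shmt1, Aldh1l2 and Mthfd1, all of low level. Aldh1l2 was at 32.4 CPM labelled control and 15.1 CPM labelled knock. Its lowest, median and highest columns were 27.6, 33.2 and 45.1 CPM in the first and 4.52, 15.0 and 27.0 CPM in the second, without overlap. Of the 5701 genes at 20 CPM or more, 8.02% were lower and 21.2% higher labelled knock without overlap. The log2 ratio of Aldh1l2 was -1.11 (-1.42 to -0.79), or -0.42 on the few counts left by thinning. Mthfd1 was at 22.1 CPM labelled control and 39.8 CPM labelled knock, with a log2 ratio of 0.85 (0.58 to 1.13). Its columns had 17.5, 20.4 and 25.6 CPM against 33.1, 38.0 and 54.0 CPM, again without overlap. Shmt1 rested on few counts, 70 labelled control and 245 labelled knock. It was at 9.90 and 26.7 CPM, its columns did not overlap, and its log2 ratio was 1.43 (1.04 to 1.84). Its mean of 18.3 CPM is below the level to which those shares apply.

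The serine synthesis enzymes did not share 1 direction in the 3' libraries. Psph was at 200.2 CPM labelled control and 243 CPM labelled knock, with a log2 ratio of 0.28 (0.18 to 0.37) and 7 of 8 columns labelled knock above the control median, though thinned columns gave -0.05. Psat1 was lower, at 344 and 279 CPM, with a log2 ratio of -0.30 (-0.38 to -0.22). Its columns had 305.5, 349 and 403 CPM against 255, 270.5 and 325 CPM. All 8 columns labelled knock thus lay below the control median while the ranges still overlapped. No share over all genes is set beside this, but 8.02% of genes at 20 CPM or more were lower without any overlap. Phgdh was at 224 and 243 CPM, with a log2 ratio of 0.12 (0.03 to 0.21), which became -0.02 with TMM factors and -0.04 with median-of-ratios factors.

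Of the mitochondrial enzymes, Shmt2 was higher in the 3' library labelled knock, at 180.3 against 128 CPM. Its columns had 115, 131 and 160.2 CPM labelled control and 148, 187 and 217 CPM labelled knock, and its log2 ratio was 0.50 (0.38 to 0.62). All 8 columns labelled knock were above the control median. No share over all genes is set beside this, but 21.2% of genes at 20 CPM or more were higher without any overlap. Mthfd2 was at 236 and 270.0 CPM, with a log2 ratio of 0.19 (0.10 to 0.28) and 5 of 8 columns above the control median, and thinned columns gave -0.04. Mthfd1l was at 41.0 and 45.3 CPM, with a log2 ratio of 0.14 (-0.08 to 0.36) that was 0.00 with TMM factors and -0.02 with median-of-ratios factors.

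By the size rule 0 of the 5 enzymes at 50 CPM or more were 2-fold apart in the 3' libraries, where 13.3% of 2826 genes were 2-fold higher and 4.53% lower in the library labelled knock. At 20 CPM or more, 0 of 8 were higher, against 17.3% of 5701 genes, and 1 of 8 was lower, Aldh1l2, against 5.68%. Column ranges that did not overlap were found for 1 of 8 enzymes higher, Mthfd1, against 21.2% of genes, and for 1 of 8 lower, Aldh1l2, against 8.02%. Shmt1, at a mean of 18.3 CPM, stayed below that limit. The median log2 ratio of the 8 was 0.17 and that of the 5701 genes 0.18, with 58.8% of them higher. Median-of-ratios factors moved the median of these genes by -0.17. Among the 2826 genes at 50 CPM or more, 377 were 2-fold higher and 128 lower, and the calls with these factors were 275 and 208. Summed, the 9 enzymes were at 1237 and 1342 CPM, which gave a log2 ratio of 0.12 (0.08 to 0.16) that was -0.02 with TMM factors and -0.04 with median-of-ratios factors. Beside these differences, the summed fibroblast markers ran from 721 to 884 CPM in columns labelled control and from 1629 to 1821 CPM in columns labelled knock. Of 7 immune markers, 5 had counts, 1 of them at 20 CPM or more, and Ptprc and Cd3e were at 0. Summed, the immune markers ran from 57.7 to 115 and from 128 to 185 CPM. Of 6 epithelial markers, 3 had counts, 1 of them at 20 CPM or more, and Krt18, Krt5 and Krt14 were at 0. Summed, the epithelial markers ran from 139 to 252 and from 90.7 to 174 CPM. The part of all these markers in the result was not tested.

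**Figure D4:**
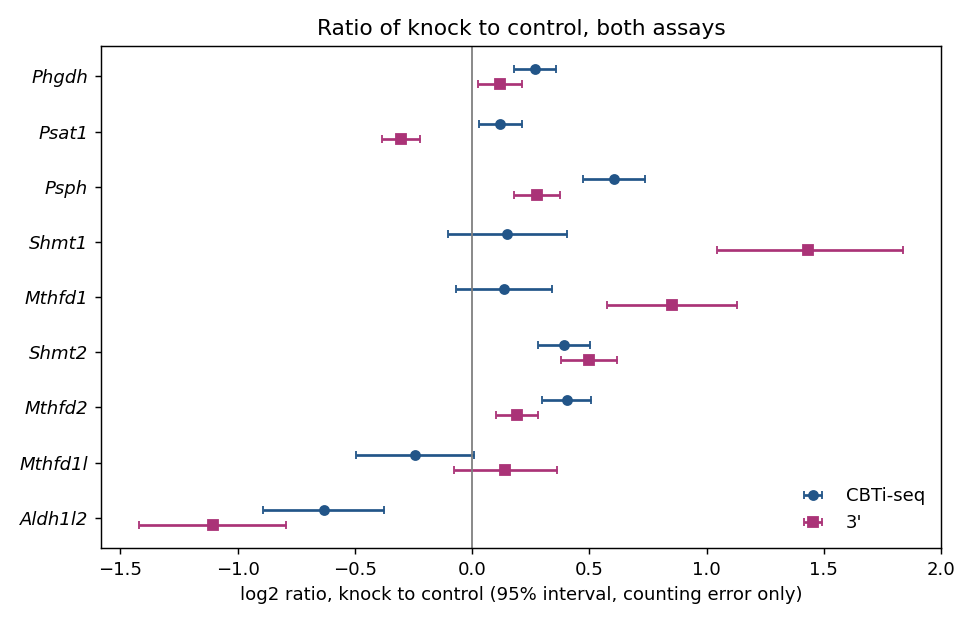
Log2 ratio of knock to control for each enzyme, with exact conditional 95% intervals for counting error only, in CBTi-seq (blue circles) and between the 3' libraries by their labels (purple squares). Psph, Shmt2 and Mthfd2 lie above 0 and Aldh1l2 below 0 in both, while Psat1 is at 0.12 in CBTi-seq and -0.30 in the 3' libraries; with thinned columns the 3' values of Psph and Mthfd2 are -0.05 and -0.04.

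Side by side, the intervals of 5 enzymes lay on the same side of 0 in both assays: those of Phgdh, Psph, Shmt2 and Mthfd2 above it and that of Aldh1l2 below it. With the 3' labels exchanged it would be 1 enzyme, Psat1. No share over all genes is set beside these counts, and the labels were not tested. The median 3' log2 ratio of all genes at 20 CPM or more was itself 0.18, with Phgdh at 0.12 and Mthfd2 at 0.19. For Phgdh, Psph and Mthfd2 the 3' sign turned under the settings given above. For Psph and Mthfd2 this was with thinned columns only, which hold fewer counts. Mthfd1 had 0.14 and 0.85, with 0 inside the CBTi-seq interval. Psat1 and Mthfd1l had opposite signs, and Shmt1 had log2 ratios of 0.15 and 1.43. Since Rrm2 also had opposite signs, at -0.46 in CBTi-seq and 1.92 in the 3' libraries, whether the assays compare the same groups of cells cannot be told apart from a difference between the assays. The balance of mitochondrial to cytosolic enzymes, which needs no total and no gene length, differed by assay. The ratio of Shmt2 to Shmt1 counts was 4.78 in control and 5.65 in knock in CBTi-seq, a log2 change of 0.24 (-0.04 to 0.52). In the 3' libraries it was 12.9 labelled control and 6.74 labelled knock, a log2 change of -0.93 (-1.36 to -0.53). The ratio of Mthfd2 plus Mthfd1l to Mthfd1 counts changed by 0.17 (-0.06 to 0.40) in CBTi-seq and by -0.67 (-0.96 to -0.38) between the 3' libraries, from 12.6 to 7.92.

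Levels of different genes are compared only per kilobase of the longest coding transcript in GENCODE vM21, a scale that may not suit counts of transcript ends. In CBTi-seq control, in CPM per kilobase, Phgdh was highest at 277, followed by Psat1 at 193, Mthfd2 at 164, Shmt2 at 140.0 and Psph at 118. Mthfd1 was at 31.5, Shmt1 at 23.5, Mthfd1l at 21.1 and Aldh1l2 at 14.5 on that scale. The order in knock differed only in that Mthfd2, at 217, came before Psat1, at 210.0. The same 5 genes were the upper 5 in the 3' libraries, with Psat1 first at 131 labelled control and Psph first at 140.0 labelled knock. In CBTi-seq control the columns of every neighbouring pair in this order overlapped. For Psph and Mthfd1 the overlap rested on control column 1 alone, where Psph had 1 count and was at 13.9. The highest Mthfd1 control column was at 45.5. In CBTi-seq knock they did not overlap between Phgdh, at 283 to 407, and Mthfd2, at 172 to 253, nor between Psph, at 139.7 to 214, and Mthfd1, at 7.78 to 48.8.

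On GRCm38, Phgdh (ENSMUSG00000053398) lies at chr3:98313170-98339990, Psat1 (ENSMUSG00000024640) at chr19:15904678-15947337 and Psph (ENSMUSG00000029446) at chr5:129765558-129787449. Shmt1 (ENSMUSG00000020534) lies at chr11:60788104-60811718, Shmt2 (ENSMUSG00000025403) at chr10:127517123-127522444, Mthfd1 (ENSMUSG00000021048) at chr12:76255298-76319803 and Mthfd2 (ENSMUSG00000005667) at chr6:83305691-83325908. Mthfd1l (ENSMUSG00000040675) and Aldh1l2 (ENSMUSG00000020256) are also on chromosome 10, at chr10:3973118-4167081 and chr10:83487450-83534140. All 9 are protein coding, and counts are per gene, so they do not separate exons, introns or isoforms. No source used here gives the use of strand in counting, and 4 of the genes overlap a named gene on the other strand whose reads could then be mixed with theirs. Cct6a, across Psph, had log2 ratios of 0.37 in CBTi-seq and -0.02 in the 3' libraries. Ndufa4l2, across Shmt2, had log2 ratios of -1.52 and -0.75. Smcr8, across Shmt1, had -0.55 in CBTi-seq and -0.63 on 37 and 31 counts in the 3' libraries. D10Wsu102e, across Aldh1l2, had -0.36 and 0.20, and its highest CBTi-seq control column, at 322 CPM, was column 4, where Aldh1l2 was highest too. Without that column its CBTi-seq value was -0.23. The pseudogene Phgdh-ps1 had 4 counts in control and 4 in knock in CBTi-seq and none in the 3' libraries.

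Across the 20 CBTi-seq columns, with log2(CPM + 1) centred within control and within knock, the enzymes varied together to different degrees. These correlations describe columns that share a sample, a preparation and a range of depths. Phgdh and Psat1, neighbours in the route, had Pearson r = 0.73, Phgdh and Shmt2 0.64, Shmt2 and Mthfd2 0.58, while Psat1 and Mthfd2 had 0.02 and Psph and Mthfd2 -0.26. Without control column 1, the shallowest, the last 2 pairs had 0.35 and 0.42, so their low values rested on that column. Of 2787 genes at 100 CPM or more outside the 9, those most like the summed enzymes were AI506816 (r = 0.85), Noc4l (0.82), Bzw1 (0.78), Pa2g4 (0.77) and Eif1ad (0.77). Without control column 1, only AI506816 and Noc4l of these were still among the first 5.

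**Figure D5:**
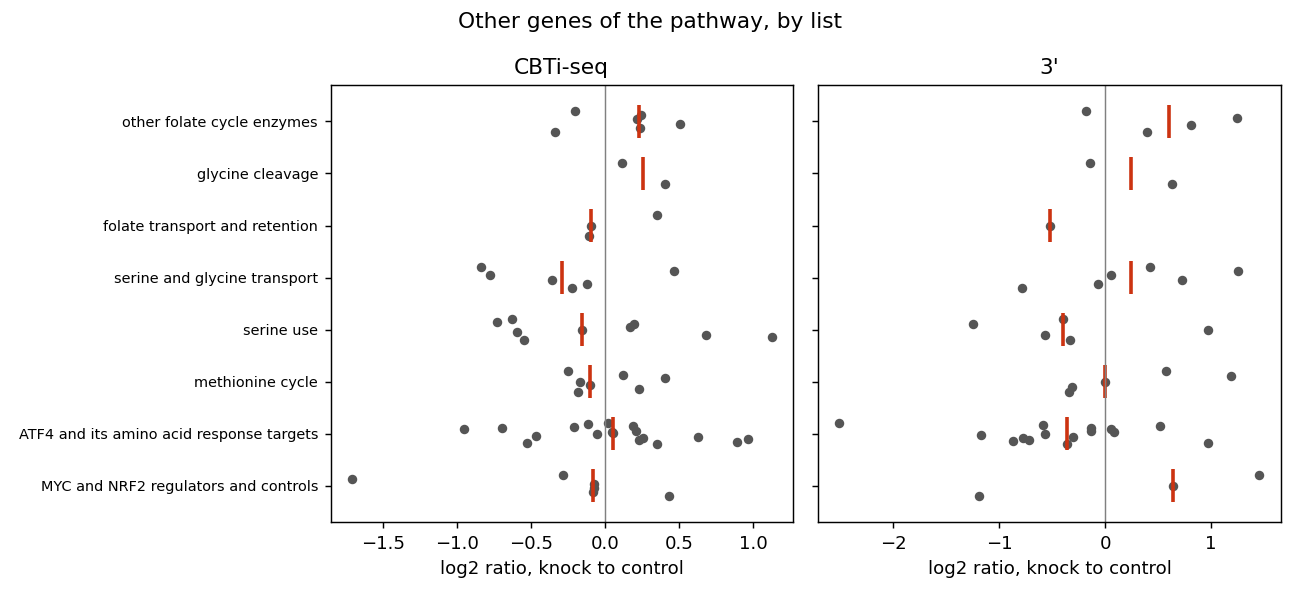
Log2 ratio of knock to control for other genes of the pathway at 20 CPM or more, 1 point per gene and 1 row per list, with the list's median as a red line, in CBTi-seq (left) and between the 3' libraries by their labels (right), on separate axes. The ATF4 list spreads from -0.95 to 0.97 in CBTi-seq and from -2.51 to 0.97 in the 3' libraries.

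Of the rest of the folate cycle, 4 of 6 measured genes were higher in knock in CBTi-seq, with a median log2 ratio of 0.22 beside -0.05 over all genes. Tyms, thymidylate synthase, was at 175 CPM in control and 248 CPM in knock (log2 ratio 0.51, 0.36 to 0.65). Gart, of purine synthesis, had 0.24 (0.04 to 0.44). Mthfd2l, the mitochondrial relative of Mthfd2, had -0.34 (-0.70 to 0.02), or -0.61 without control column 9. Between the 3' libraries Tyms had 1.25 (1.13 to 1.37), higher without overlap of columns, as were 21.2% of genes at 20 CPM or more. Gart had -0.18 (-0.46 to 0.10) there, and 3 of 4 genes were higher. Of glycine cleavage, Gcsh had 0.40 (0.17 to 0.63) in CBTi-seq and 0.63 (0.36 to 0.91) in the 3' libraries, and Dld 0.11 (-0.01 to 0.23) and -0.14 (-0.27 to -0.01).

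Of 6 measured serine and glycine transporters, only Sfxn1 was higher in knock in CBTi-seq. Sfxn1, which carries serine into mitochondria, was at 222 CPM in control and 307 CPM in knock, a ratio of 0.47 on the log2 scale (0.34 to 0.60). All 10 of its knock columns were above the control median, as they were for 5.70% of genes at 50 CPM or more. Its relative Sfxn3 had -0.84 (-1.27 to -0.42). Slc38a2, a plasma membrane transporter of neutral amino acids, was at 312 and 243 CPM, with -0.36 (-0.49 to -0.23). All its knock columns were below the control median, as they were for 4.06% of genes at 50 CPM or more. Slc6a9, a glycine transporter, had -0.78 (-1.13 to -0.44). Sfxn1 was also higher in the 3' library labelled knock, at 340.1 against 143 CPM, without overlap, as were 21.2% of genes at 20 CPM or more. In all, 4 of 6 transporters were higher there, or 3 of 6 with TMM or median-of-ratios factors. Slc1a4 had -0.79 (-0.88 to -0.70) in those libraries, but -0.36 without column 1 labelled control, which held 805 of 2289 counts, and -1.29 without column 6 labelled knock. Of folate transport and retention, 1 of 3 genes was higher in CBTi-seq, Fpgs, which adds glutamates that keep folate in the cell, at 0.35 (0.10 to 0.59). Fpgs was the only gene of that list measured in the 3' libraries, at -0.52 (-0.64 to -0.40).

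Of the genes that use serine, 4 of 9 were higher and 5 lower in CBTi-seq. Sdsl, a relative of serine dehydratase, was at 13.5 and 29.4 CPM with 1.13 (0.63 to 1.64), and Serinc1 had -0.73 (-0.96 to -0.50). Sptlc1, of sphingolipid synthesis, had 0.68 (0.31 to 1.05) in CBTi-seq but -0.33 (-0.57 to -0.10) in the 3' libraries. Sptlc2, on the same list, had -0.60 (-0.84 to -0.36) in CBTi-seq and -0.57 (-0.75 to -0.39) in the 3' libraries. Between the 3' libraries 1 of 5 was higher, Ptdss2, of phosphatidylserine synthesis, at 0.97 (0.70 to 1.24). Cth, which releases cysteine from cystathionine, was 2-fold lower there, at 78.1 and 33.0 CPM, with -1.24 (-1.45 to -1.04). The methionine cycle had a median log2 ratio of -0.10 over 7 genes in CBTi-seq, where Ahcy had 0.40 (0.20 to 0.61), or 0.67 without control column 9, and of 0.00 over 5 genes in the 3' libraries.

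ATF4 is a transcription factor known to switch on serine synthesis and mitochondrial folate genes when amino acids are short. Of the list of Atf4 and its targets in that response, 11 of 18 were higher and 7 lower in CBTi-seq, with a median of 0.05 beside -0.05 over all genes. Atf4 itself was at 487 CPM in control and 620 CPM in knock in CBTi-seq, with a log2 ratio of 0.35 (0.26 to 0.44). In the 3' libraries Atf4 was at 465 and 362 CPM, with -0.36 (-0.43 to -0.29). Chac1, a glutathione-degrading enzyme, was at 90.1 CPM in control and 176 CPM in knock in CBTi-seq, with a log2 ratio of 0.97 (0.77 to 1.16). In the 3' libraries Chac1 went the other way, at 38.6 and 22.6 CPM, with -0.77 (-1.04 to -0.51). Ddit3, the stress factor CHOP, was at 149 and 276 CPM in CBTi-seq, with 0.89 (0.74 to 1.04). For Chac1 and Ddit3 all 10 CBTi-seq knock columns were above the control median, as they were for 5.70% of genes at 50 CPM or more. Vldlr had -0.95 (-1.19 to -0.72). Ddit4 had -0.70 (-0.98 to -0.42), but -0.15 without control column 3, which held 121 of its 297 control counts. Between the 3' libraries 4 of 15 were higher and 11 lower (2 of 15 higher with TMM or median-of-ratios factors), with a median of -0.36 beside 0.18 over all genes. Pycr1, of proline synthesis, was at 39.8 and 6.99 CPM there, with -2.51 (-2.92 to -2.11), and Ddit3 at 195 and 107 CPM, with -0.87 (-0.99 to -0.75). Atf5 was among those higher there, at 43.4 and 85.2 CPM, with 0.97 (0.78 to 1.17). In CBTi-seq Atf5 was lower in knock, at 306 CPM in control and 212 CPM in knock. Its log2 ratio there was -0.53 (-0.67 to -0.40), and its column ranges did not overlap. Myc, another known activator of these enzymes, had 0.43 (0.31 to 0.54) in CBTi-seq, or 0.26 without control column 9, and -1.19 (-1.45 to -0.94) in the 3' libraries. Of its list of regulators and control genes of the MYC and NRF2 pathways, 1 of 6 was higher in CBTi-seq and 2 of 3 in the 3' library labelled knock. Nqo1, a quinone reductase under NRF2, had -1.71 (-2.16 to -1.29) in CBTi-seq, or -1.13 without control column 3, which held 87 of its 206 control counts. Nqo1 was below 20 CPM in the 3' libraries, at 3.25 CPM labelled control and 13.4 CPM labelled knock. Hmox1, heme oxygenase, had -0.29 (-0.50 to -0.07) in CBTi-seq, or -0.58 without knock column 10, and 1.46 (1.21 to 1.71) in the 3' libraries.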

How the data were processed

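RNA of L929 cells was measured in 3 samples. The deposited values are raw counts in whole numbers: CBTi-seq in 20 columns under gene symbols, in a table whose name refers to UMIs, and each 3' library in 8 columns under Ensembl IDs. Whether 3' counts are reads or UMIs, the counting tool and its use of strand are not given in any source used here. The aligner STAR 2.7.11b, Picard and FastQC are named per the submitters' processing notes, as are GRCm38 and GRCh38, with no role for either build. Of 55402 IDs, 55141 matched GENCODE vM21 (GRCm38), and IDs of 1 symbol were added up. The columns carry no cell barcodes. No 2 columns of an assay held identical counts (0 of 190 and 0 of 120 pairs), and doublets were not called.

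Counts were summed per group and scaled to CPM. Log2 ratios have exact conditional (Clopper-Pearson) 95% intervals and levels exact Poisson ones. With 1 sample per 3' group and 1 for both CBTi-seq groups there was no test. The calculation was tested on simulated data. Calls of 2-fold by size needed 50 CPM or more, and lists were counted at 20 CPM or more. The members and lists were chosen with earlier results of these data known. Named genes were the 9 enzymes, Rrm2, and up to 4 genes per list and assay with the largest ratios. The 5 genes most like the summed enzymes were named too. Overlapping genes and the pseudogene were added for their position, and Atf4 as a known regulator. For 1 list gene the values are not reported here. Alternatives were the mean of column CPM, scaling by median-of-ratios factors (DESeq2 1.42.0) or by TMM (edgeR 4.0.16), totals that leave out mitochondrial and ribosomal protein genes, thinning to 50000 counts, correction for UMI collisions (1024 labels assumed), other limits on level, and each column left out. Thinning left out CBTi-seq control column 1, whose 41570 counts were below 50000. Other software was scipy 1.17.1, pandas 2.3.3, numpy 2.4.6 and matplotlib 3.10.9 in Python 3.11.15, and R 4.3.3. Promoters came from the RefSeq table for GRCm38.p6.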

Additional observations from a re-analysis of the deposited data

Results flagged for a closer look

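In 36 groups of columns, 1 per enzyme, assay and group, the highest or lowest column was set against its nearest neighbour, with Dixon's critical values of 0.466 for 10 columns and 0.526 for 8. Chance alone marks about 1 in 20 such groups, and 2 were marked. Aldh1l2 was at 333 CPM in CBTi-seq control column 4, from 92 counts of 276231, with the next column at 108 CPM. Mthfd1 was at 54.0 CPM in column 3 of the 3' library labelled knock, from 61 counts of 1128976, with the next column at 42.6 CPM.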

How the results depend on the processing

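In CBTi-seq the 2-fold count stayed at 0 of 9 and the median log2 ratio between 0.05 and 0.18 under every alternative other than leaving out a column. The summed log2 ratio of 0.26 was 0.19 with thinned columns, and the 4 enzymes with every knock column above the control median became 1 with thinned columns and 2 after correction for collisions. Thinning also gave Shmt1 -0.40 and Mthfd1 -0.12, on few counts. Of 234 CBTi-seq values of single enzymes under all alternatives, 5 moved beyond the counting interval and 3 changed sign; of 198 3' values, 21 moved and 7 changed sign. In the 3' libraries the median of 0.17 became 0.029 with TMM factors, 0.0087 with median-of-ratios factors, 0.061 without mitochondrial and ribosomal protein genes and -0.044 with thinned columns. The summed log2 ratio of 0.12 became -0.021, -0.042, -0.015 and 0.062 under the same 4. The 3' count of 0 became 1 at 20 CPM and 2 without a limit (Aldh1l2 and Shmt1). Leaving out each column gave medians of 0.11 to 0.27 in CBTi-seq and 0.13 to 0.20 in the 3' libraries, and summed ratios of 0.23 to 0.29 and 0.08 to 0.13. The Shmt2 to Shmt1 change ran from 0.089 to 0.54 in CBTi-seq, highest without knock column 10, and from -1.15 to -0.81 in the 3' libraries. The Mthfd change ran from -0.01 to 0.31, lowest without control column 9, and from -0.87 to -0.60. The 5 enzymes with intervals on the same side of 0 in both assays would be 1 with the 3' labels exchanged, again without a share over all genes. The causes of these moves were not tested. Each enzyme has 1 Ensembl ID, so taking 1 ID per symbol changes nothing for them. The 3' values under that setting, which could not move, are part of the 198 above. No paired analysis was possible because both CBTi-seq groups are columns of 1 sample and each 3' group is 1 sample. Depth limits Shmt1, Mthfd1, Mthfd1l and Aldh1l2 most, the 4 enzymes of lowest level.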

Other observations

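Control column 4 of CBTi-seq, which held the high Aldh1l2 level, was the extreme of the 10 control columns for other enzymes as well. It had the lowest Mthfd1, at 47.1 CPM, the lowest Shmt2, at 224 CPM, and the lowest Mthfd2, at 156 CPM, and the highest Mthfd1l, at 145 CPM, where the other 9 columns reached 94.8 CPM. Mthfd2l was also highest there, at 72.4 CPM, as were the transporters Slc38a2, at 409 CPM, and Slc6a9, at 105 CPM, while Slc7a5 was lowest, at 94.1 CPM. These genes were named after their values were seen, and column 4 is 1 column of 1 sample.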
